A study of Homo sapiens with 14 samples.

Results

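The loci of 6 genes of the MYC network were described in TC-32 cells, a line from Ewing sarcoma, a tumour of bone and soft tissue in children and young adults. The genes were taken by name: the transcription factor genes MYC, MYCN and MYCL, their dimer partner MAX, the MAX-binding repressor MXI1, and PVT1, a long non-coding RNA (lncRNA) gene that lies next to MYC. They are 6 of 62062 genes of the GENCODE 44 annotation on the autosomes and chromosome X, of which 19970 are protein-coding. Each gene body was examined alone and with 10, 50 and 500 kb on either side. The study used CUT&RUN, in which an antibody directs a nuclease to the chromatin it binds and the released fragments are sequenced. All cells were labelled WT and untreated, so there is 1 condition, and the comparisons are between antibodies, libraries and places in the genome. FLI1 was mapped in 2 sets of libraries, A and B, with 2 replicates each, H3K27ac in set A, and H3K9me3 and H3K27me3 in set B, with 2 replicates of each. What separates the sets is not given in the labels, and nothing there says that replicates came from separate cultures. An IgG control went with each replicate of each set. TC-32 is 1 line, so nothing here speaks to other Ewing sarcomas.

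MYC, MYCN and MYCL encode basic helix-loop-helix leucine zipper proteins that bind DNA as dimers with MAX and raise the expression of genes for growth and ribosome production, while MXI1 and its relatives compete for MAX and repress. MYC is controlled in many tumours by enhancers scattered over the gene-poor region around it, PVT1 included. In Ewing sarcoma the fusion EWSR1::FLI1 keeps the DNA-binding part of FLI1, an ETS factor that reads the core GGAA, and it is known for binding microsatellites of repeated GGAA, where it can set up new enhancers. H3K27ac marks active promoters and enhancers, H3K27me3 marks genes held silent by Polycomb proteins, and H3K9me3 marks constitutive heterochromatin.

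The FLI1 lists held 29339 to 40590 regions, those of H3K27ac 10219 and 17366. The lists are peak calls with a fold over IgG and carry no read totals, so the depth behind a value is unknown, and a missing region says only that none passed the caller's limit. As a check of the label, the direct EWSR1::FLI1 targets NKX2-2, NR0B1 and CCND1 had FLI1 regions within 50 kb in every library (7 to 19, 5 to 7 and 18 to 31), whereas ALB, a liver gene, had 0 in each. Other genes of unrelated cell types were not all free of it: CD3E of T cells had 2, 1, 1 and 1 regions, PTPRC of blood cells 0, 2, 1 and 0, and INS of the pancreas 0, 1, 0 and 0. H3K27ac had 1 and 2 regions by replicate at NKX2-2 and 2 and 2 at CCND1, but 0 and 0 at NR0B1. PTPRC had 0 and 1, and ALB, CD3E and INS had 0 in each, so H3K27ac calls can be missing at a fusion target. Folds are given below in a fixed order, set A replicates 1 and 2 and then set B replicates 1 and 2. With no comparison of conditions, no test was run. Counts for the 6 genes stand beside the share of all protein-coding genes that met the same rule.

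The GGAA repeats under FLI1 near these genes can be read directly. The first 4 sequences below, from the plus strand of hg38, are the runs near MYCN, MAX and MXI1 with a FLI1 summit, the highest point of a peak, within 250 bp in all 4 libraries. Capitals mark each run, which is 4 or more units of GGAA, or of TTCC where the repeat is on the other strand. The last sequence, near MYCN, holds a long run that had no FLI1 summit in any library. The letters are those of the reference, and the length of a repeat in TC-32 itself was not measured.
MYCN, 292 kb before the start, chr2:15648546-15648686, FLI1 in 4 libraries: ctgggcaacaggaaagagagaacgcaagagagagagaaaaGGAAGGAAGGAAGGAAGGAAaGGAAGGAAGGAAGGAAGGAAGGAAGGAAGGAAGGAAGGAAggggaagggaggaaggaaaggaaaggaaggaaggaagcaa
MYCN, 98.8 kb after the start, chr2:16039353-16039452, FLI1 in 4 libraries: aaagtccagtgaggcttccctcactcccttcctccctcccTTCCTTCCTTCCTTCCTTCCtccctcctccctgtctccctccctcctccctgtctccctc
MXI1, 327 kb after the start, chr10:110534066-110534185, FLI1 in 4 libraries: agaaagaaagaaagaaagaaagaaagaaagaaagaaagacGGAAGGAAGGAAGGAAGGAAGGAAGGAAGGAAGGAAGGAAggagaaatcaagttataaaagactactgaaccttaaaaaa
MAX, 473 kb before the start, chr14:65575544-65575663, FLI1 in 4 libraries: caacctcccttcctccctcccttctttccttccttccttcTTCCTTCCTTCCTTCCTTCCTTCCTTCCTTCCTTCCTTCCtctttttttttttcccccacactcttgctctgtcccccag
MYCN, 53.6 kb after the start, chr2:15994090-15994278, no FLI1 summit: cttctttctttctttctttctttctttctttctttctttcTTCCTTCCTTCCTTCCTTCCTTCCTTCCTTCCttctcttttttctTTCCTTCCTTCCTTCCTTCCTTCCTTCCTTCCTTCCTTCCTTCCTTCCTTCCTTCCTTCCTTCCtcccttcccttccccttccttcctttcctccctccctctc
The bound runs had 5 or 10 units, and the unbound one reached 16.

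FLI1 lay within 1 kb of the gene start in all 4 libraries at 3 of the 6 genes, MYC, PVT1 and MAX. The share over all protein-coding genes was 33.8%, and over lncRNA genes 12.7%. At MYC (chr8:127735434-127742951, plus strand) the strongest region at the start had folds over IgG of 22.3, 19.2, 14.4 and 22.7 by library. Those values were at the 92.7th and 91.3rd percentile of all regions of set A replicates 1 and 2, and at the 81.5th and 94.6th of the set B lists. The regions joined over libraries ran from 127732322 to 127740030 and held all 14 annotated transcript starts of MYC, including the canonical one at 127736231. Both set B summits fell on base 127736068, and the set A summits at 127735647 and 127735552, so the libraries placed FLI1 within the same promoter. Another 2 regions of all 4 libraries had their summits 7.79 kb before the start and 7.81 kb after it, the latter just beyond the end of the gene.

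At PVT1 (chr8:127794526-128187101, plus strand, 393 kb long, starting 51.6 kb after the end of MYC) the folds at the start were lower, at 9.91, 13.45, 7.62 and 10.8. None of these reached the lowest value at MYC, 14.4. At MAX (chr14:65006174-65102695, minus strand) they were 4.78, 8.31, 13.2 and 10.9, and both set B values exceeded both set A values. The MAX summits also differed in place. They lay before the gene start in set A, at 65102887 and 65102954, and inside the gene in set B, at 65102455 and 65102426.

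**Figure D1:**
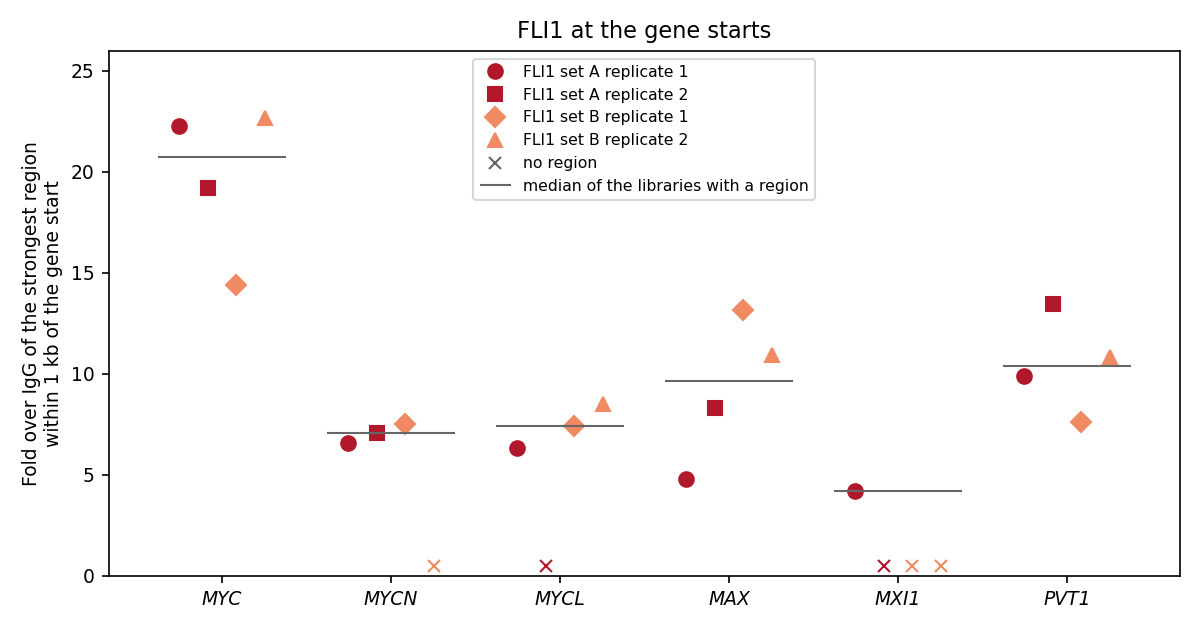
Fold over IgG of the strongest FLI1 region within 1 kb of the start of each gene (vertical axis, linear), by library. A cross marks a library with no region, and the grey line is the median of the libraries that had one. MYC is the highest in each library, from 14.4 to 22.7, and MYCN, MYCL and MXI1 each lack a region in at least 1 library.

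MYCN, MYCL and MXI1 had FLI1 at the start in fewer libraries. MYCN (chr2:15940550-15947007, plus strand), the family member amplified in neuroblastoma, had folds of 6.56 and 7.06 in set A, 7.49 in set B replicate 1 and no region in set B replicate 2. MYCL (chr1:39895428-39902256, minus strand) had 6.34 in set A replicate 1, none in replicate 2, and 7.41 and 8.50 in set B. All of these were between the 41.8th and 56.2nd percentile of their lists, near the middle, and the missing library differed between the genes. At MXI1 (chr10:110207605-110287365, plus strand) a region at the annotated start appeared only in set A replicate 1, with a fold of 4.19. FLI1 was instead at other starts inside the gene. A region with folds of 10.6, 16.6, 6.05 and 9.85 had its summit 3.41 kb after the gene start, within 1 kb of a transcript start at 110210231. Another, with 13.52, 8.31, 12.8 and 5.60, covered a group of starts, such as 110226035, and had its summit 18.8 kb in. Counting every annotated transcript start, 4 of the 6 genes had FLI1 in all 4 libraries. This looser rule favours genes with many starts, and MXI1 has 37 distinct starts and PVT1 132. The share of all genes that met it was not taken, so the count has no background here.

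No gene of the 6 had H3K27ac within 1 kb of its start in both replicates, and the share over protein-coding genes was 11.3%, so that a count of 0 among 6 genes is near the background. Other transcript starts inside PVT1, described below, did carry it in both replicates. PVT1 had a region in replicate 2 alone, with a fold of 4.79, and at MYC the nearest call within 10 kb was a single region of replicate 2, with a fold of 4.52. At MYC, then, FLI1 was called in all 4 libraries and H3K27ac at the start in neither replicate, a combination found at 17.7% of protein-coding genes. MAX shared it. H3K9me3 was at the start of 0 of 6 genes in both replicates, against 1.39% of protein-coding genes.

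H3K27me3 was at the start of MYCN and MYCL in both replicates, 2 of the 6, where the share over protein-coding genes was 9.47%. At MYCN the region ran from 15940645 to 15943058 in replicate 1, with a fold of 4.63, and from 15941032 to 15942226 in replicate 2, with a fold of 4.78. Among FLI1 regions within 1 kb of the MYCN start, the strongest in each library had its summit just before the start: 404 bases in set A replicate 1, 388 in set B replicate 1 and 2 in set A replicate 2. Further in, 3.36 kb after the start, a region of those 3 libraries had folds of 4.47, 6.74 and 10.2. A FLI1 region of 3 libraries, from 15940434 to 15941185, reached into the H3K27me3 of both replicates. At MYCL the H3K27me3 regions were short, with folds of 4.204 and 4.37, and their shared part was centred 1.16 kb before the start. MYCL no longer counted when the distance was reduced to 500 bp, and neither replicate had H3K27me3 within 1 kb of its canonical start at 39901917. FLI1 in all 4 libraries together with H3K27me3 in both replicates at the start was met by 0 of the 6 genes and by 0.13% of protein-coding genes. MYCN and MYCL had FLI1 in 3 libraries. The 0.13% belongs to the stricter rule of all 4 and is no background for these 2 genes. Whether both sit on the same DNA molecules or in different cells was not tested.

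The promoter of MYCN is shown because FLI1 was called on it beside H3K27me3. This is the RefSeq sequence (GRCh38.p14) of the 250 bases before the start, on the plus strand, with the core GGAA or TTCC in capitals.
MYCN promoter, chr2:15940300-15940549: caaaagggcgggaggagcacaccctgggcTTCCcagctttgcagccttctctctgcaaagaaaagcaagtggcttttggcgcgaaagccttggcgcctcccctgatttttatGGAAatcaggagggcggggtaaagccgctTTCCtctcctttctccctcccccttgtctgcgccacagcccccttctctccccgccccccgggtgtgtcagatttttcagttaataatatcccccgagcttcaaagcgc
With the 50 bases that follow, it holds 3 cores, the median number over 35116 RefSeq promoters of the same 300 bases, and no CGGAAG, the longer ETS site, on either strand. CGGAAG occurs in 19.5% of those promoters. Of the 7 RefSeq promoters of MYCN, MYCL, MAX and MXI1, 1 of MAX and 1 of MXI1 held it. The latter, for the MXI1 start at 110225996 under the FLI1 region of all 4 libraries, had 7 cores, the most of the 7. The E-box CACGTG, the site of MYC and MAX themselves, was in none of the 7, and in 7.26% of all. These are matches of letters, not measured sites. At MYCN the strongest FLI1 summits of set A replicate 1 and set B replicate 1, at 15940146 and 15940162, lay before the printed bases. Only that of set A replicate 2, at 15940548, fell inside, so the counts do not describe the bases under the other summits.

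Around MYC and PVT1 the FLI1 regions were dense. Set A had 87 and 99 regions in the 1.45 Mb from 500 kb before MYC to 500 kb after PVT1, and set B had 117 and 85. Per Mb this was 5.67 ± 0.648 times the genome's density (SD, n = 4 libraries), with the lowest library at 5.09. The rest of chromosome 8 had 9.46 to 13.46 regions per Mb, close to the genome's 9.68 to 13.4. The copy number of the window in TC-32 was not measured here. Joined over libraries, the window held 138 regions, of which 42 were in all 4. Of these 42, 40 were distal, with no protein-coding start within 5 kb, which is 95.2%, against 51.2% of all 16163 such regions in the genome. The only protein-coding genes of the window are POU5F1B and MYC, so nearly all of it is distal by this rule, the PVT1 starts included. The contrast can therefore not be read as a trait of its FLI1 regions, and its cause was not tested.

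The strongest FLI1 region of the window by mean percentile lay in an intron of PVT1, from 127807980 to 127819742, 18.0 kb after the PVT1 start. Its folds, those of the most significant peak in each library, were 70.6, 73.3, 60.1 and 26.05. The mean percentile, 98.9, takes the highest fold in each library, which in set B replicate 2 was 31.6. It covered 11.8 kb, held a GGAA run of 6 units, and overlapped H3K27ac in both replicates. The next by that measure was in an intron of the lncRNA gene PCAT1, 475 kb before MYC, with folds of 46.8, 66.9, 16.5 and 17.1. After it came a region 149 kb before MYC, in an intron of the gene ENSG00000286266, with 17.8, 23.01, 29.8 and 19.2. The highest folds of the window occurred in set A alone: a region in an intron of LINC00824, 730.5 kb after the PVT1 start, had 94.4, 106, 11.8 and 10.95.

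The 4 antibodies gave different stretches of this window, as the map of the window shows. With each region counted in the stretch that holds its midpoint, FLI1 had 32, 43, 54 and 38 regions within the PVT1 body, H3K27ac 30 and 63, H3K9me3 4 and 2, and H3K27me3 none. In the 500 kb after PVT1 the order of the histone marks turned: H3K27ac had 2 and 4 regions and H3K9me3 52 and 27. In the 500 kb before MYC, H3K27ac had 3 regions in each replicate and H3K9me3 18 and 7. FLI1 was called on both sides too, with 15 to 24 regions before MYC and 24 to 30 after PVT1. Per Mb, H3K9me3 after PVT1 stood at 104 and 54.0 in the replicates, where the genome had 12.1 and 7.18. H3K27me3 had 0 regions in either replicate across the whole window, whereas the rest of chromosome 8 had 7.83 and 5.99 per Mb. Of all protein-coding genes, 17.5% had no H3K27me3 region within 500 kb in either replicate.

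**Figure D2:**
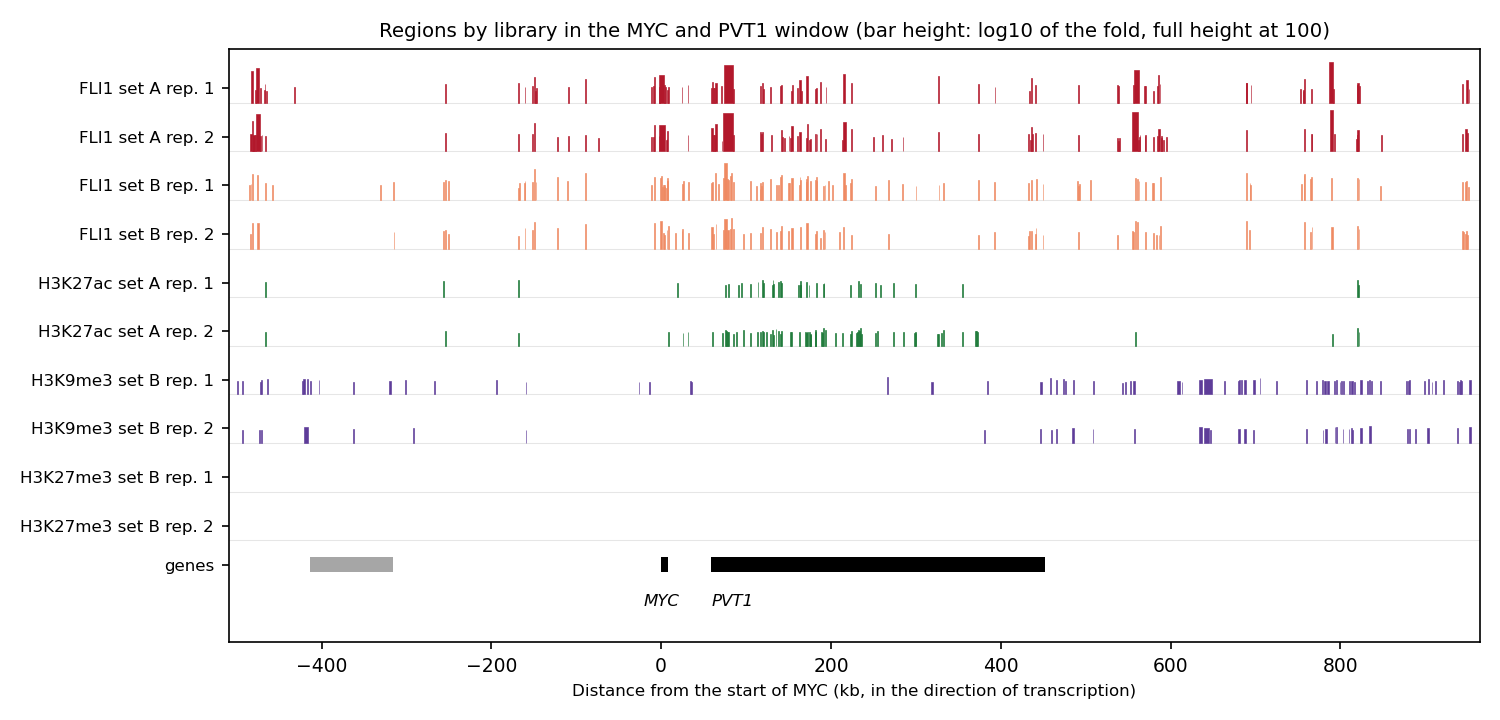
Regions of each library in the window around MYC and PVT1, by distance from the start of MYC in kb. Bars span each region, at least 1 kb as drawn, their height is the log10 of the fold over IgG, and black boxes are MYC and PVT1 and grey ones other protein-coding genes. H3K27ac gathers in the PVT1 body, with 30 and 63 regions, H3K9me3 lies mostly after it, with 52 and 27, and both H3K27me3 tracks are empty.

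PVT1 had more H3K27ac regions of both replicates in its body, 20, than any other of 38726 protein-coding and lncRNA genes. IGF1R, the receptor gene of insulin-like growth factor, followed with 19, and SHB and ENSG00000255872 had 18 each. Of protein-coding and lncRNA genes at least as long as PVT1, 719 in all, 78.9% had none. The rank depended on how the mark was counted. In replicate 1 alone PVT1 was second with 30 regions and in replicate 2 first with 63. By bases shared between the replicates, 6.08 kb, it was 25th. With only peaks of a −log10 q of at least 5 it kept 2 regions and ranked 26th, one of 92 genes with that number, so most of the 20 were weak calls. Their folds ran from 3.78 to 6.95 in replicate 1. For FLI1 of all 4 libraries PVT1 had 19 regions and ranked 10th, where RERE led with 31.

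**Figure D3:**
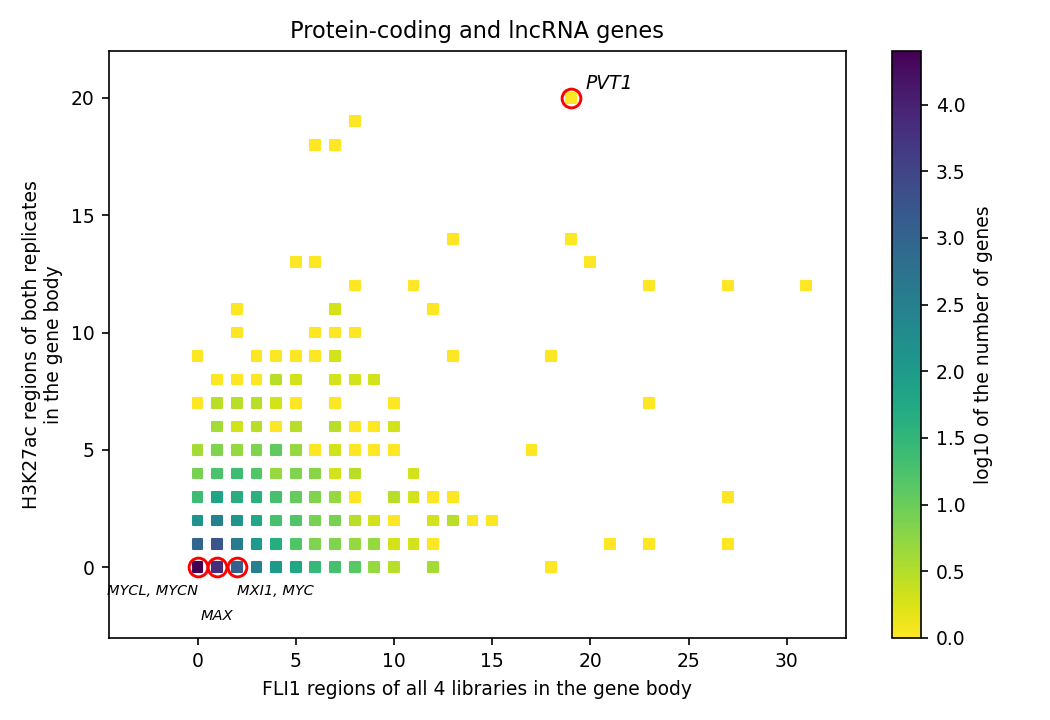
Number of FLI1 regions of all 4 libraries (horizontal axis) and of H3K27ac regions of both replicates (vertical axis) in the body of each protein-coding and lncRNA gene. Each square is a pair of counts, coloured by the log10 of the number of genes that share it, and red circles hold the genes of the MYC network. PVT1 stands at 19 and 20, and MYC, MYCN, MYCL, MAX and MXI1 have no H3K27ac region and at most 2 of FLI1.

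FLI1 and H3K27ac met often within PVT1. Of its 19 FLI1 regions of all 4 libraries, 6 overlapped H3K27ac of both replicates and 13 that of at least 1. Over the genome these shares were 14.1% and 30.8%, and among those distal to protein-coding starts by more than 5 kb they were 10.1% and 23.7%, beside 31.6% and 68.4% in PVT1. H3K27ac was itself dense there, with 76.4 and 160 regions per Mb by replicate, against 3.37 and 5.73 in the genome. The shares were not adjusted for this density, and most of the 20 H3K27ac regions of both replicates were weak calls. In the rest of the window 2 of 23 overlapped both replicates. A second set of PVT1 transcript starts, at 127854396 to 127855209, carried both: FLI1 had folds of 8.63, 8.92, 7.33 and 11.6 there and H3K27ac 6.95 and 5.23.

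Over all 5 windows, 26 H3K27ac regions of both replicates were distal by that measure, and 23 of these were around MYC and PVT1. FLI1 of all 4 libraries overlapped 11 of the 26, 42.3%, and all 11 were at MYC and PVT1. The share over the 2671 distal regions of the genome was 33.8%. The most enriched of the 11 was again at LINC00824, from 128554893 to 128556011, with H3K27ac folds of 7.03 and 6.998 and FLI1 folds of 8.63, 10.3, 11.7 and 12.7. Before MYC the one such region lay at 127567147 to 127567802, 168 kb from the start, with H3K27ac folds of 6.87 and 4.17. At PVT1 the strongest was the one on the inner starts described above. The count of 26 rested on weak calls, as only 3 regions were left at a −log10 q of at least 5, and the 2 replicates alone gave 42 and 86.

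MYCN showed a different arrangement. FLI1 had 19, 21, 23 and 12 regions within 500 kb, 1.56 ± 0.242 times the genome's density (SD, n = 4 libraries), and 8 joined regions were in all 4 libraries. All 8 were distal to protein-coding starts, in a window whose only protein-coding genes are NBAS, DDX1 and MYCN. None overlapped H3K27ac in either replicate. Among such distal regions of the genome 10.1% overlapped both replicates and 23.7% at least 1. With 8 regions, a count of 0 cannot be set apart from these shares. The strongest of the 8 by mean percentile, 42.0 kb after the start of MYCN and outside any gene, had folds of 45.0, 37.8, 18.3 and 12.2, higher in both set A libraries. Its summit sequence, 60 bases on either side of 15982563 on the plus strand, holds no GGAA run and 2 cores, in capitals. Summits in other windows did not all hold a core. The same span at the summit of the FLI1 region 457 kb after the MAX start held 0 cores. The span at the summit 321 kb after the MXI1 start also held 0.
MYCN, 42.0 kb after the start, chr2:15982503-15982623: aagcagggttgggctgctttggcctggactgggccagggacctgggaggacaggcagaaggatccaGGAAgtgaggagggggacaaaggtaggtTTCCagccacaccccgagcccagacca
H3K27me3 was called at MYCN itself and in a row of regions centred 63.9 to 98.3 kb after its start, within introns of the genes ENSG00000226764 and GACAT3. Both replicates shared 10 regions and 9.31 kb in the window. One of them overlapped the FLI1 region that holds the 5-unit run printed above, whose folds were 14.7, 13.6, 14.9 and 8.64. FLI1 of all 4 libraries overlapped H3K27me3 of both replicates at 0.204% of its regions in the genome, 33 in all.

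MYCL lies among many genes. Set A had 21 and 17 FLI1 regions within 500 kb and set B 33 and 29, so both set B values were above both of set A. By mean percentile the strongest of all 4 libraries was at CAP1, a gene of the actin cytoskeleton, 139 kb before MYCL, with folds of 63.6, 41.9, 55.1 and 57.0. H3K27me3 of both replicates covered 14.0 kb of the window, 8.50 kb of it in 1 region at HPCAL4. At MYCL itself H3K9me3 of both replicates was called 6.56 kb before the start, with folds of 4.33 and 4.91, beside the weak H3K27me3 region. No H3K27ac region lay within 10 kb of MYCL in either replicate.

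MAX had the fewest FLI1 regions in each library. The counts were 12, 14, 18 and 8 within 500 kb, 0.988 ± 0.229 times the genome's density (SD, n = 4 libraries), which is within 1 SD of it. H3K27ac had 1 region in replicate 1 and 0 in replicate 2 in the whole window. H3K9me3 had 17 and 12, which per Mb was 1.28 and 1.52 times the genome. Beside the rest of chromosome 14 the window held more of FLI1 and H3K9me3 in each library. Its FLI1 regions per Mb were 10.9, 12.8, 16.4 and 7.30, against 8.73, 9.80, 9.57 and 6.92 there. For H3K9me3 the values were 15.5 and 10.9, against 7.76 and 4.22. By mean percentile the strongest FLI1 region of all 4 libraries lay 457 kb after the start and had folds of 14.0, 22.3, 14.0 and 12.7. H3K9me3 of both replicates was called inside MAX, 15.3 kb after its start, with folds of 5.06 and 6.48.

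By the mean over libraries, MXI1 was next to MYC and PVT1 in FLI1 density. MYCL followed with 2.16 ± 0.775 times the genome's density (SD, n = 4 libraries). In set B replicate 2 MYCL was above MXI1, with 28.8 against 26.9 regions per Mb. At MXI1, FLI1 had 36, 41, 41 and 29 regions within 500 kb, 2.87 ± 0.100 times the genome's density (SD, n = 4 libraries). The 2 strongest of all 4 libraries by mean percentile lay between DUSP5, a phosphatase of ERK, and SMC3, a subunit of cohesin. The first, from 110531144 to 110537978 had folds of 66.7, 102, 21.02 and 16.8 and carried the 10-unit run printed above. It overlapped H3K27ac in neither replicate. The other, 321 kb after the MXI1 start, had 13.1, 19.0, 21.2 and 19.5. The H3K27ac region of both replicates nearest to these 2 was at the start of SMC3, with folds of 8.73 and 5.31. Closer to MXI1 itself, another lay at SMNDC1, 96.3 kb after the MXI1 start, with folds of 5.20 and 6.54. Within 10 kb of the MXI1 body no histone mark had a region in any of the 6 lists.

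**Figure D4:**
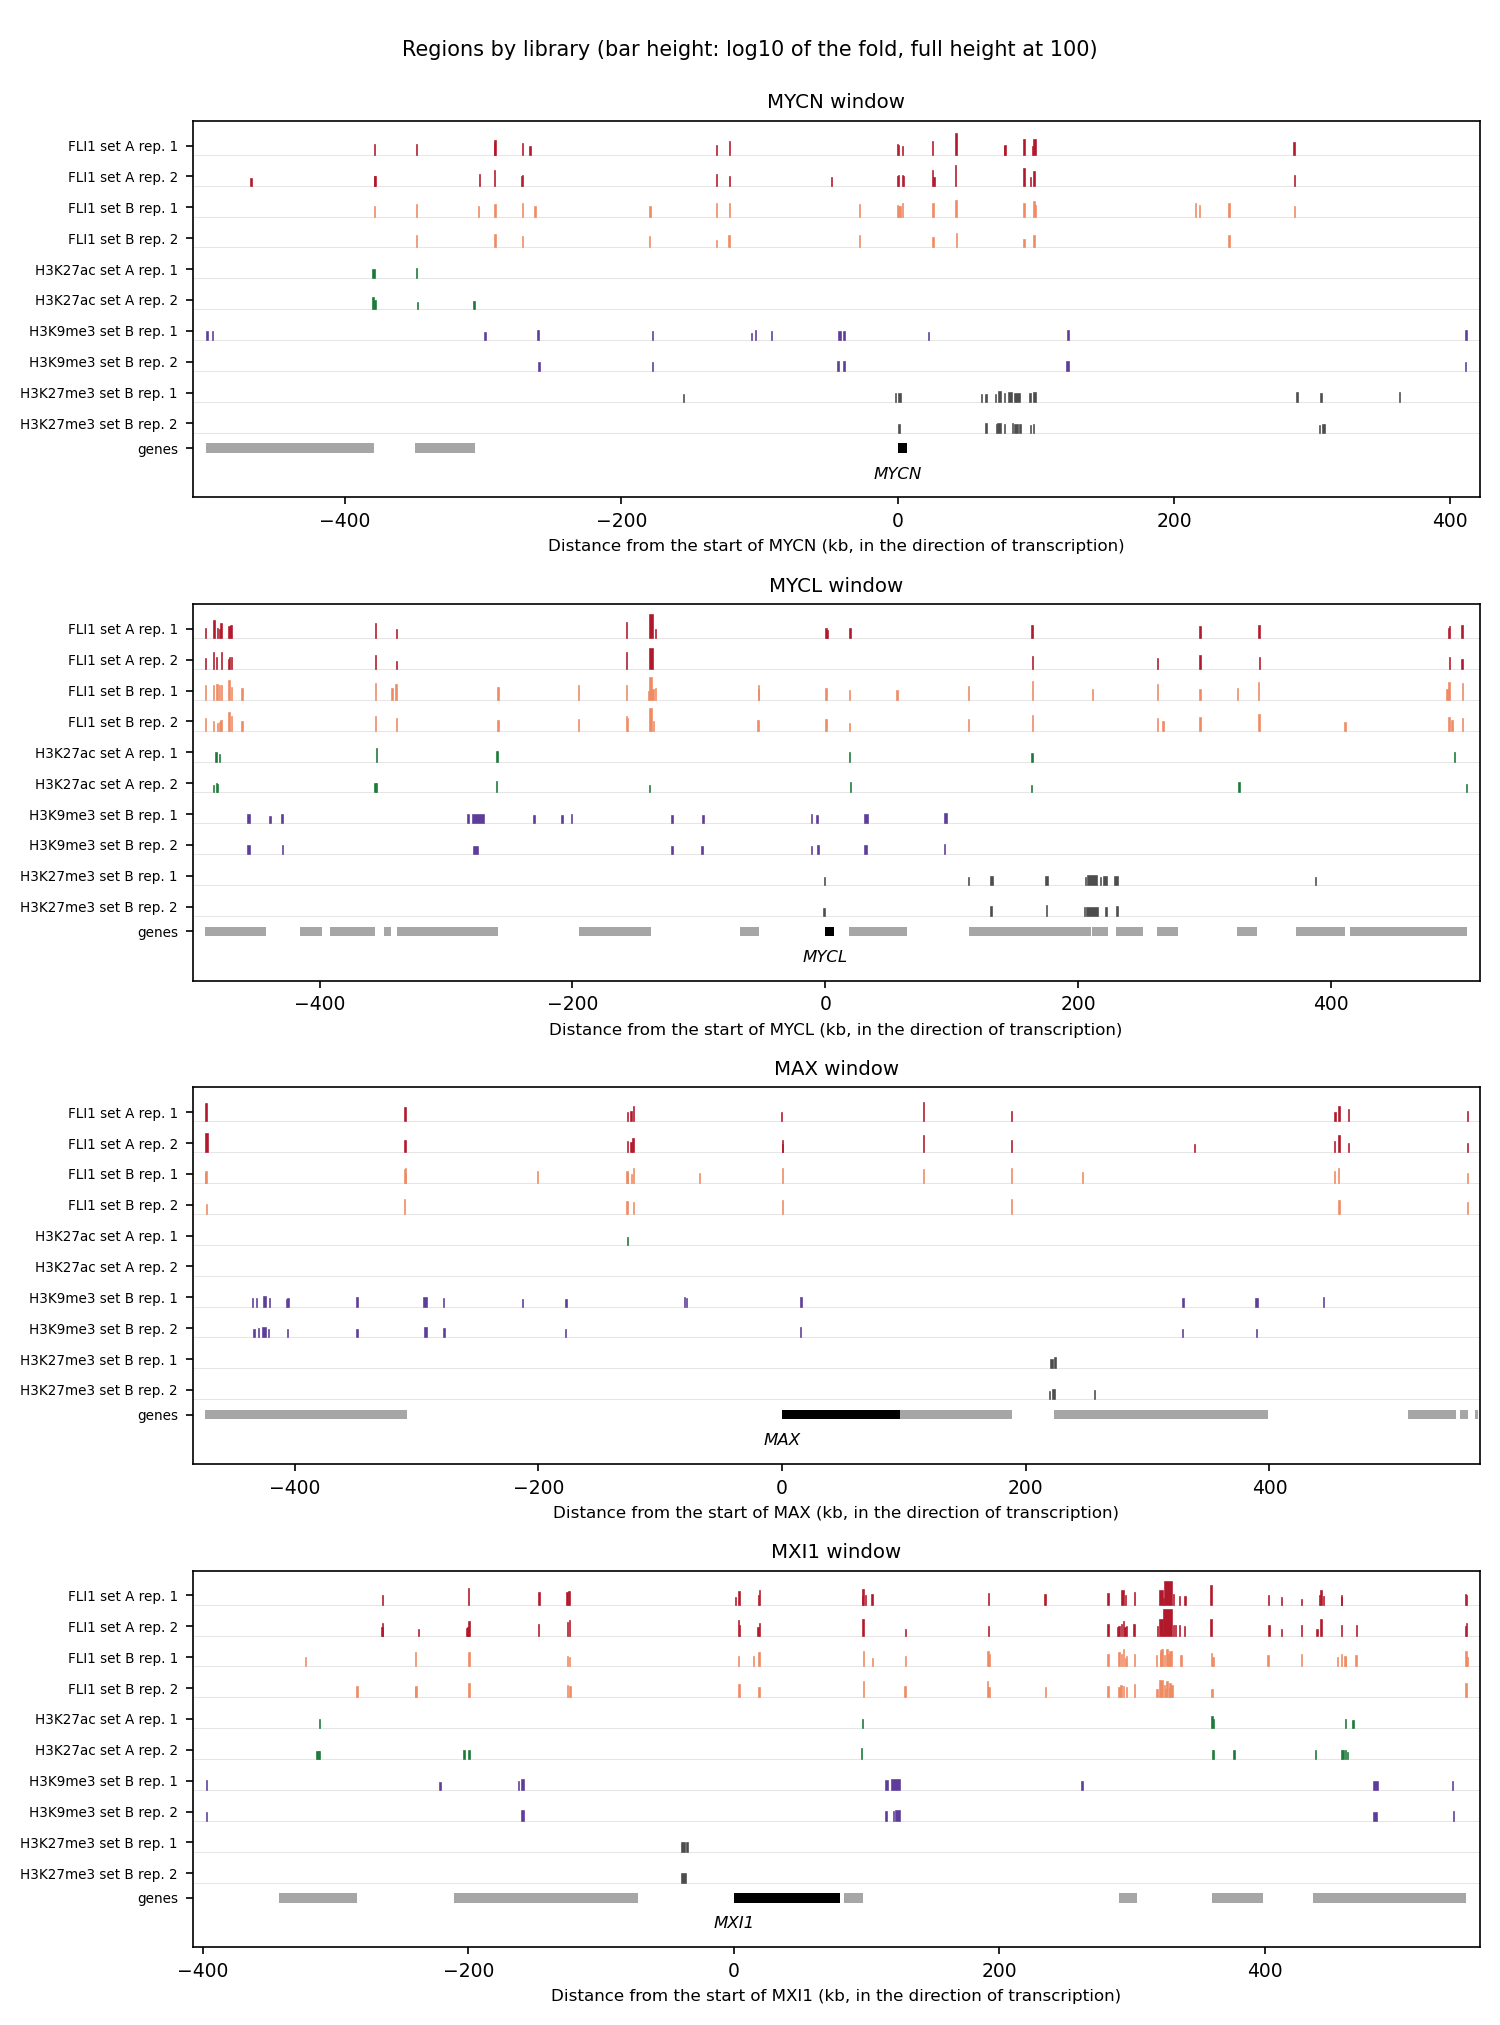
Regions of each library within 500 kb of MYCN, MYCL, MAX and MXI1, by distance from the start of the named gene in kb along its direction of transcription. Bars, heights and boxes are as in the map of MYC and PVT1. H3K27me3 is seen at MYCN and 63.9 to 98.3 kb after it, and the 2 FLI1 regions near MXI1 with the highest mean percentile lie 321 and 327 kb after its start.

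Within 10 kb of the gene body, FLI1 was present in all 4 libraries at 4 of the 6 genes (MYC, MAX, MXI1 and PVT1), where 56.3% of protein-coding genes met the rule. The counts by library were 8, 7, 10 and 7 at MYC, 32, 43, 55 and 38 at PVT1, 4, 4, 3 and 2 at MXI1, and 1, 2, 1 and 1 at MAX. MYCN had 3, 4, 4 and 0, and MYCL 2, 0, 1 and 1. In every library PVT1 had the most and MYC the second most, and the other 4 genes had at most 4. Within 500 kb, FLI1 was present in all 4 libraries at 6 of 6 genes, as at 97.2% of protein-coding genes. PVT1 is by far the longest of the 6, and its 61 joined regions are summarised here rather than named one by one. Histone marks within 10 kb were absent from both replicates at 4 of the 6 genes for H3K27ac (MYCN, MYCL, MAX and MXI1), 3 for H3K9me3 (MYC, MYCN and MXI1) and 4 for H3K27me3 (MYC, MAX, MXI1 and PVT1). The shares of protein-coding genes without them were 54.8%, 65.1% and 78.1%.

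Few of the FLI1 regions held a GGAA run. Of the 88 regions of all 4 libraries in the 5 windows, 8 had a run of at least 4 units within 250 bp of a summit of at least 1 library, 9.09%, against 7.89% of such regions in the genome. With 100 bp in place of 250 the share was 1.14%, 1 region, and in the genome 2.28%. Of the 8, 4 were around MYC and PVT1, 2 near MYCN, and 1 each near MAX and MXI1. MYCL had none. Seen from the repeats, the windows hold 60 runs, of which 17 had a FLI1 summit within 250 bp in at least 1 library and 5 in all 4. The genome's shares were 18.5% and 4.69%, beside 28.3% and 8.33% here.

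A summit of at least 1 library lay within 250 bp of 6 of 36 runs of 4 to 5 units (16.7%), 4 of 12 of 6 to 9 units (33.3%) and 7 of 12 of 10 or more (58.3%). The genome's shares were 9.22%, 20.8% and 45.1%. Summits of all 4 libraries were at 2 of the 36, 0 of the 12 and 3 of the 12, with 1.31%, 5.24% and 14.6% in the genome, so this count did not rise steadily with length here. The runs are few, and some adjacent ones share summits. The 32 runs around MYC and PVT1 included none with a summit in all 4 libraries within 250 bp. The 16-unit run 499.7 kb after the PVT1 start had summits of 2 libraries, the 15-unit run in an intron of PVT1 of 1, and an 11-unit run 576 kb after it of none. Both of the first 2 nevertheless lay inside FLI1 regions of all 4 libraries, with folds of 37.2, 82.5, 12.1 and 20.9 and of 6.96, 16.2, 12.1 and 9.62. In those 2 regions the libraries shared the region and not the place of its summit.

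**Figure D5:**
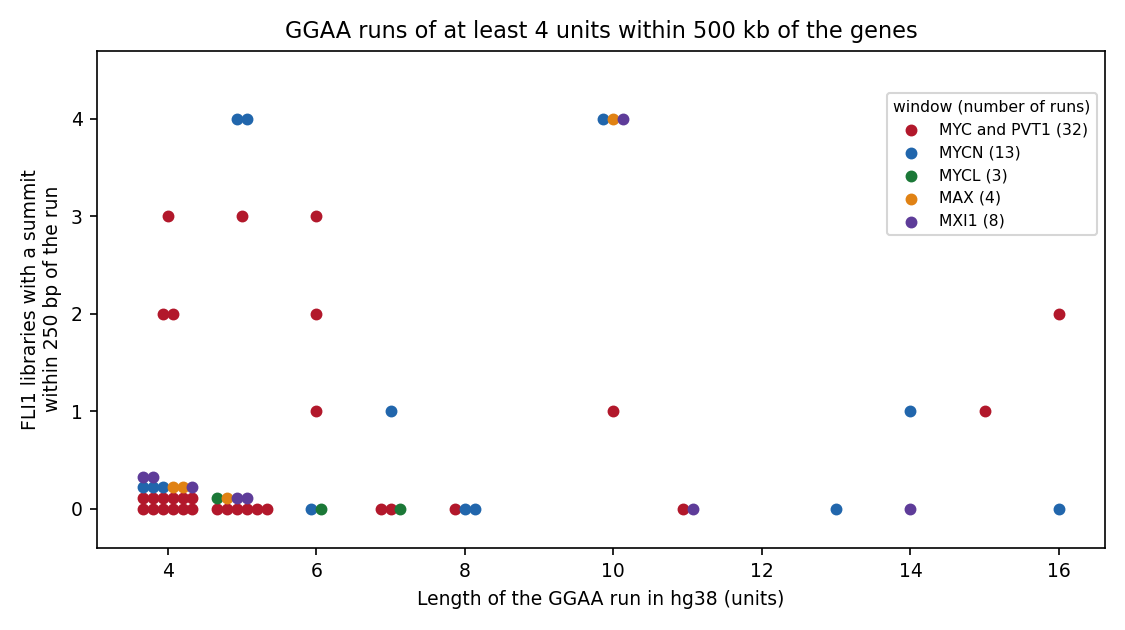
The 60 GGAA runs of at least 4 units within 500 kb of the 6 genes: length in hg38 in units (horizontal axis) and number of FLI1 libraries with a summit within 250 bp (vertical axis). Points that share a position are drawn side by side or stacked. The 3 runs of 10 units with 4 libraries lie near MYCN, MAX and MXI1, and a 16-unit run near MYCN has none.

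The sets differed at the repeats. At 6 of the 8 repeat-bearing regions both set A libraries stood at a higher percentile of their own list than both set B libraries, and the reverse occurred at 0. The widest gap was at the 10-unit run in an intron of FUT8 on the MAX side, with folds of 26.99, 31.4, 8.37 and 5.69, a mean percentile of 95.4 against 35.8. At the 18 regions without a run and within 1 kb of a protein-coding start, set A was above set B at 3 and below it at 7. In the genome set A was above at 66.4% of repeat-bearing regions and at 22.6% of those at starts. Distal regions without a run were between, with 36.6% in the genome and 24 of 58 here.

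For each gene, the most similar protein-coding genes were taken as those with the smallest Euclidean distance over the 10 lists, using the percentile of the strongest region within 10 kb and 0 for none. MYC was closest to CDC7, a kinase of replication origins, with a distance of 4.23. Like MYC, CDC7 had FLI1 at high percentiles in all 4 libraries (92.4, 88.3, 80.8 and 94.1) and H3K27ac in replicate 2 only. MXI1 was closest to USP11, at 2.69. MYCN had no near match: the closest, NUTM2E, was at 36.8. For MYCL it was TBX18 at 34.9, for MAX CCDC149 at 13.1 and for PVT1 SNX8 at 18.8. Neighbouring genes share regions and so share a distance, as FUZ and MED25 did for MYC at 9.37.

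The wider pathway was taken from 4 lists of 51 genes: other members of the MAX network, cofactors of MYC, genes of MYC turnover and known MYC targets. FLI1 was at the start in all 4 libraries at 27 of the 51, or 52.9%, and H3K27ac in both replicates at 12, or 23.5%, beside the 33.8% and 11.3% of all protein-coding genes. H3K27me3 and H3K9me3 of both replicates were at 0 of the 51 starts, beside 9.47% and 1.39% of protein-coding genes, and for H3K9me3 a count of 0 is near that background.

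In the MAX network 5 of 8 genes had FLI1 at the start in all 4 libraries, and 0 had H3K27ac there in both replicates. The latter was met by 11.3% of protein-coding genes, so that a count of 0 among 8 is near the background. MNT, a repressor that binds MAX, had folds of 27.3, 39.2, 26.001 and 26.7, all above the highest value at MYC, 22.7. MXD3, a relative of MXI1, had 23.7, 28.6, 26.3 and 18.3, and MLX, the partner of the Mondo proteins, 58.6, 51.7, 29.97 and 13.6. MXD4 and MLXIP were the other 2, while MXD1 and MLXIPL had no region at the start in any library.

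Among the cofactors 7 of 15 had FLI1 in all 4 libraries. The highest of all was KAT5, an acetyltransferase, with 106, 108, 76.8 and 46.5. ACTL6A, a subunit of chromatin remodellers, was higher in both set B libraries, with 28.6, 21.2, 59.9 and 44.5. CDK9, the kinase that releases paused polymerase, was even, from 27.7 to 30.6. In the turnover list 8 of 12 met the rule, among them STUB1, a ubiquitin ligase, with 60.1, 55.9, 43.5 and 19.8, and AURKA, which stabilises MYCN protein, with 9.81, 10.8, 15.1 and 10.95. Of the MYC targets 7 of 16 did, among them NOP56, a protein of ribosome production, with 16.8, 9.67, 8.77 and 14.0. FLI1 in all 4 libraries met H3K27ac in both replicates at 8 of the 51 starts, beside 8.07% of protein-coding genes: RUVBL2, HCFC1, CCNT1, SKP2, AURKA, CIP2A, PTMA and HSPD1.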

How the data were processed

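CUT&RUN peak lists of 10 libraries from TC-32 cells were used. The submitters' processing notes name cutadapt 4.4, Bowtie2, Picard 2.17.11, MACS2 2.1.1 and the build GRCh38 (hg38), without roles. The deposited lists give, per peak, the fold over control as a ratio, the −log10 p and −log10 q values, a score of 10 times the −log10 q, and for narrow peaks the summit, all as the authors' peak caller wrote them. Fold, p and q are the authors' values and were used only to describe, rank or filter peaks within a list. Peaks were called per library, so the lists can be set side by side. Read totals are not in them.

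Overlapping peaks of a list were merged on the autosomes and X, keeping the values of the most significant. Regions of different lists were joined where they shared at least 1 base. Genes and starts came from GENCODE 44, and sequences from hg38 and RefSeq. Genes were named by rule: the 6 genes in full, FLI1 regions within 10 kb, the 3 strongest of all 4 libraries per window, repeat-bearing and distal regions, and pathway genes. The genes and lists were chosen with earlier results of these data known. With 1 condition, no test was run. The counting steps were tested on simulated regions and recovered 200 of 200 planted repeats and 100 of 100 planted overlaps. Python 3.11.15, pandas 2.3.3, NumPy 2.4.6, SciPy 1.17.1, matplotlib 3.10.9, pysam 0.24.0 and samtools 1.23.1 were used. Alternatives changed windows, thresholds and libraries.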

Additional observations from a re-analysis of the deposited data

How the results depend on the processing

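Over 10 results and 58 alternatives, 48 values stayed within 1.5 times the count, or within the 95% exact binomial interval of a share, and 10 moved. By this measure the FLI1 counts at the 6 genes and the pathway genes were among those that stayed. Leaving a library out can only keep or raise a count that asks for all libraries, so it cannot show a loss. Without set A replicate 2, or without set B replicate 2, the genes with FLI1 at the start rose from 3 to 4. Those with FLI1 within 10 kb rose from 4 to 5. Distal H3K27ac regions numbered 26 in both replicates, 99 in either, 3 at a −log10 q of at least 5, and 42 to 86 with a replicate left out. The share of them that overlapped FLI1 rose from 42.3% to 65.4% with FLI1 of any library. H3K27ac regions in the PVT1 body, an alternative chosen after seeing the data, numbered 20 in both replicates, 2 at a −log10 q of at least 5, and 30 to 63 with a replicate left out. Genes with H3K27ac at the start numbered 0 to 1 with a replicate left out. Genes with H3K27me3 at the start fell from 2 to 1 at 500 bp. The share of FLI1 regions with a GGAA run became 1.14% at 100 bp. No paired analysis was possible because no result comes from a test and the lists of a replicate number are of different antibodies. The lists give no depth, so a region that is absent from a library may have missed the caller's limit.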

Other observations

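The lncRNA gene PCAT1 reaches into the window before MYC but extends beyond it. Over its whole 863 kb PCAT1 had 27 FLI1 regions of all 4 libraries and 12 H3K27ac regions of both replicates. Inside the window its H3K27ac regions were each of 1 replicate, so the 12 lay more than 500 kb from MYC. The counts of PCAT1 therefore do not describe the surroundings of MYC. Of the 38726 protein-coding and lncRNA genes only RERE, with 31, had more FLI1 regions, and NTM and OPCML had as many as PCAT1 with 1 and 3 H3K27ac regions. Near MYCL, PPIE, RLF and ZMPSTE24 carried H3K27ac of both replicates at their own starts, and near MXI1 SMNDC1 and SMC3 did. ZMPSTE24, the protease that matures lamin A, had H3K27ac folds of 10.0 and 5.44. Near MYCN the one H3K27ac region of both replicates was at NBAS, with folds of 5.34 and 8.83 and FLI1 in 3 libraries.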
